A study of Mus musculus with 12 samples.

Results

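The inhibitors of the cyclin-dependent kinases (CDKs) of G1 and the retinoblastoma (Rb) family were followed across salivary tumors of 3 p53 genotypes. All probe sets whose single annotated gene symbol was Cdkn2a, Cdkn2b, Cdkn2c, Cdkn2d, Cdkn1b, Cdkn1c, Rb1, Rbl1 or Rbl2 were taken, which gave 12 probe sets of 9 genes, out of 22626 probe sets tested and 12393 genes named by a single symbol. None of the 12 was shared with another gene in the annotation. A probe set is a group of short oligonucleotides that reads 1 or more transcripts of a gene.

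The tumors arose spontaneously in salivary glands of mice, 4 homozygous for p53 R172H (MMTV-ras/p53R172H/R172H, MT1 to MT4), 4 without p53 (MMTV-ras/p53-/-, KO1 to KO4) and 4 with wild-type p53 (MMTV-ras/p53+/+, WT1 to WT4). All of them, the WT tumors included, carried a Hras transgene driven by the mouse mammary tumor virus promoter, which is active in salivary and mammary epithelium, so there is no tissue without the oncogene in the comparison. The colonies were of mixed C57BL/6 and BALB/c background, and the p53 R172H allele was brought in from C57BL/6 mice. The study reports earlier onset of salivary tumors in p53-/- and p53 R172H mice than in p53+/+ mice. Age may therefore differ between the groups along with genotype, and its part was not tested. Total RNA from frozen sections of each tumor was hybridized to 1 Affymetrix mouse array, and the values are log2 expression levels. Whether the 4 tumors of a genotype came from 4 mice is not stated in the labels, and the p-values rest on the spread among the tumors as measured. In bulk tumor RNA, fewer cells of a type and less RNA per cell cannot be told apart.

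G1 progression depends on the kinases CDK4 and CDK6 with D-type cyclins and on CDK2 with cyclin E, which phosphorylate the Rb family and release E2F transcription factors. The INK4 proteins (p16Ink4a, p15Ink4b, p18Ink4c and p19Ink4d) bind CDK4 and CDK6, and the CIP/KIP proteins, p27Kip1 and p57Kip2 among them, bind cyclin-CDK2 complexes. The Cdkn2a gene makes p16Ink4a and, from an upstream first exon read in another frame, p19Arf, which inhibits Mdm2 and so stabilizes p53. Oncogenic Ras is known to induce the locus in cultured fibroblasts, and p53 is known to repress Arf in a feedback loop. Rb1 encodes pRb, while p107 and p130, the products of Rbl1 and Rbl2, join the DREAM complex that keeps cell cycle genes silent in resting cells.

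The start regions of the locus are printed first, because the members that differed between genotypes lie here, within a single stretch of chromosome 4, and because Cdkn2a has 2 starts that its probe set cannot tell apart. Each window holds 250 bases before and 50 after the start (RefSeq, GRCm38.p6), 5′ to 3′ on the gene's strand. Capitals mark matches to the E2F motif, searched on both strands as TTTCCCGC, TTTCGCGC, TTTGCCGC and TTTGGCGC. The windows are chr4:89294570-89294869 (minus strand) for the upstream Cdkn2a start, which opens the Arf transcript, chr4:89282143-89282442 (minus strand) for the downstream Cdkn2a start, which opens the Ink4a transcript, and chr4:89310983-89311282 (minus strand) for Cdkn2b.
Cdkn2a upstream start: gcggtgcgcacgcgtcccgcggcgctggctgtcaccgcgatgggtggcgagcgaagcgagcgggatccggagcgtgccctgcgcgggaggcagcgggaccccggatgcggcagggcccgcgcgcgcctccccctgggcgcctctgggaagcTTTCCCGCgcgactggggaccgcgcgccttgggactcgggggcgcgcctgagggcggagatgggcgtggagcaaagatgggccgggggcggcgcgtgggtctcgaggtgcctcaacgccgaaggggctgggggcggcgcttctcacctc
Cdkn2a downstream start: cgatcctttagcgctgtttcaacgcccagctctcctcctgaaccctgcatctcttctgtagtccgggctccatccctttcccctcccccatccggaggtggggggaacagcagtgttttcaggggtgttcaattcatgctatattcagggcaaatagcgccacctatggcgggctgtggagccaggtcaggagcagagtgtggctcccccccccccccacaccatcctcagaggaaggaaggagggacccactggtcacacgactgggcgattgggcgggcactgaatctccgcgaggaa
Cdkn2b start: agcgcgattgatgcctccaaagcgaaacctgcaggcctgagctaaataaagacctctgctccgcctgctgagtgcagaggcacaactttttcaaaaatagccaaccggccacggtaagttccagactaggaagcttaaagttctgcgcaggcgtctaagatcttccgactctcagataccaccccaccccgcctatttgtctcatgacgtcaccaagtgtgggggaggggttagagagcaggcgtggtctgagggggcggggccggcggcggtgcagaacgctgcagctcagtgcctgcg

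The upstream Cdkn2a window held 1 match, TTTCCCGC, beginning 99 bases before the start, and the other 2 windows of the locus held none. The upstream window also held 45 CpG dinucleotides, against 12 at the downstream start and 18 at Cdkn2b. Windows were found for 7 of the 9 genes, 9 windows in all, and the only other match was at Rbl1. Over all 32851 windows of this length, 744 (2.26%) held the motif. The Rbl1 window, chr2:157204485-157204784 (minus strand), is shown for its match, which begins 18 bases before the start.
Rbl1 start: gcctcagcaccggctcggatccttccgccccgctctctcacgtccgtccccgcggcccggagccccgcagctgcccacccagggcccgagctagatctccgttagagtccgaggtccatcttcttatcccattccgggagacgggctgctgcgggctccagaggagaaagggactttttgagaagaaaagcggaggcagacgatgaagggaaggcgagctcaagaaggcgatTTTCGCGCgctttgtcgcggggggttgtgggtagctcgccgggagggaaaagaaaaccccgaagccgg

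Cdkn2a and Cdkn2b were higher in KO tumors than in WT tumors, and no other member passed the test in any comparison. Levels were compared with limma, which fits 1 mean per genotype over the 12 tumors. The p-values were adjusted over all 22626 probe sets by the Benjamini-Hochberg method, a call needs an adjusted p under 0.05, and differences are on the log2 scale with their standard errors (SE). Between KO and WT tumors 2 of the 12 member probe sets were called higher, where 1.94% of all probe sets were, and 0 were called lower, where 2.64% of all were. Between MT and WT tumors 0 of 12 were called by limma (0.367% of all probe sets), and between MT and KO tumors 0 of 12 (0.00884% of all). At an unadjusted p under 0.05, 4 of 12 passed between KO and WT tumors (23.9% of all), 4 of 12 between MT and WT tumors (19.4% of all) and 2 of 12 between MT and KO tumors (9.58% of all). By the methods' t-test 1 member was called between KO and WT tumors (0.0442% of all probe sets) and 0 between MT and WT and between MT and KO tumors (0.0% of all in each). SAM, a permutation method, called 2 members between KO and WT (8.83% of all), 1 between MT and WT (6.41% of all), a share of the members near that of all probe sets, and 0 between MT and KO tumors (0.0% of all).

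**Figure D1:**
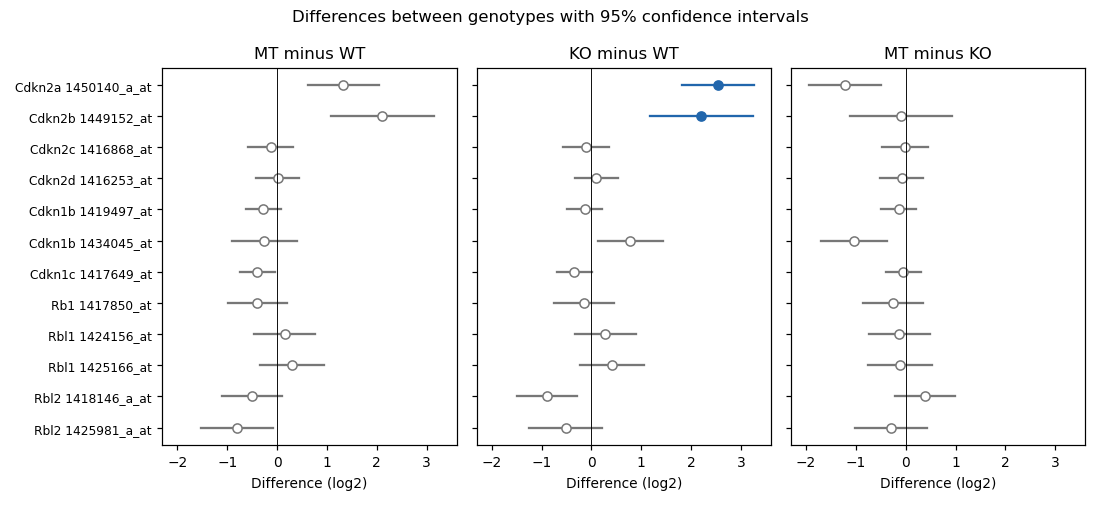
Difference in log2 level (horizontal axis) for each of the 12 member probe sets in the 3 comparisons of genotypes, with 95% confidence intervals from limma (4 tumors per genotype). Filled blue points have an adjusted p under 0.05, and these are Cdkn2a (2.54) and Cdkn2b (2.21) in KO minus WT.

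The median difference over the 12 probe sets was -0.0083 in KO minus WT, -0.19 in MT minus WT and -0.12 in MT minus KO, beside -0.019, -0.0093 and 0.017 over all probe sets, and 6 of the 12 were above 0 in KO minus WT, 5 in MT minus WT and 1 in MT minus KO. The groups did not overlap at 3 of 12 probe sets between KO and WT tumors (14.5% of all), at 1 of 12 between MT and WT (10.9% of all) and at 1 of 12 between MT and KO (4.85% of all). The comparisons with WT share the 4 WT tumors, so that their values are not independent.

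Cdkn2a is read by 1 probe set, 1450140_a_at, whose suffix marks probes shared by several transcripts, and p16Ink4a and p19Arf transcripts are therefore summed in its value. Its log2 level was 6.50, 5.48, 7.42 and 6.79 in MT1 to MT4, 7.87, 7.49, 7.66 and 8.04 in KO1 to KO4, and 5.15, 5.51, 4.95 and 5.30 in WT1 to WT4. Every KO tumor was above every MT tumor and every WT tumor, and among the MT tumors MT2 alone fell within the WT range. Cdkn2a was 5.81-fold higher in KO than in WT tumors (difference 2.54, SE 0.33, adjusted p = 0.00675 from limma). The WT levels and that of MT2 lay well below the median of all values, 6.93. They were near the mean of Cdkn1c, 5.37, a probe set that a filter on dim probe sets would leave out. Whether Cdkn2a was detected in these tumors was not tested, and the fold is a ratio to such low levels. The MT tumors averaged 6.55 ± 0.81 and the WT tumors 5.22 ± 0.24 (SD, n = 4 each), a difference of 1.32 (SE 0.33) that did not pass (adjusted p = 0.0845 from limma). Without MT2 this difference was 1.68 with an adjusted p of 0.0325 from limma, in a range of 0.0047 to 0.9999 over 27 alternatives. The KO mean was 7.76 ± 0.24 (SD, n = 4), and MT minus KO was -1.22 (SE 0.33, 95% interval -1.93 to -0.50), which did not pass either (adjusted p = 0.276 from limma).

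Cdkn2b, which encodes p15Ink4b, an inhibitor known to be induced by TGF-beta, had levels of 8.13, 8.40, 8.43 and 9.43 in MT1 to MT4, 8.72, 8.31, 8.55 and 9.19 in KO1 to KO4, and 5.41, 7.85, 6.84 and 5.84 in WT1 to WT4 (1449152_at). All MT and KO tumors were above all WT tumors, and the 4 WT tumors were spread over a range of 2.43, against 1.31 in MT and 0.88 in KO tumors. Cdkn2b was 4.61-fold higher in KO than in WT tumors (difference 2.21, SE 0.47, adjusted p = 0.0281 from limma). The MT minus WT difference was of like size, 2.11 (SE 0.47), but did not pass (adjusted p = 0.0699 from limma), and MT minus KO was -0.095 (SE 0.47, 95% interval -1.13 to 0.94). WT2 was nearest to the other genotypes, and without it MT minus WT was 2.56 with an adjusted p of 0.0203 from limma, in a range of 0.00502 to 0.9999 over 27 alternatives.

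The 2 calls differed in how they held. The Cdkn2a call in KO minus WT held in 26 of 27 alternatives, with differences between 2.45 and 2.63, and the Cdkn2b call in 17 of 27, with differences between 1.85 and 2.85. Not all of the 27 could test these calls. A threshold of 0.1 keeps every call. Leaving out an MT tumor, or the poly-A block described below, changed the estimate of the spread and not the difference. For KO minus WT that block gave the same fit as leaving out MT4. The Cdkn2b call was lost without WT1, WT3, KO1, KO2, KO3 or KO4, each left out alone, at adjusted p-values of 0.052 to 0.0699 from limma, where all 27 alternatives gave 0.00748 to 0.157. The level of 18S ribosomal RNA on the arrays varied within and between genotypes, with MT4 and WT4 inside the KO range. It was 6.41, 6.59, 6.58 and 7.66 in MT1 to MT4, 7.36 to 8.03 in KO and 9.11, 8.90, 9.33 and 7.51 in WT1 to WT4. With it as a covariate the KO minus WT difference was 2.57 for Cdkn2a (adjusted p = 0.128 from limma) and 2.85 for Cdkn2b (adjusted p = 0.157 from limma), the highest p of the 27 alternatives for each, and neither passed. The spiked poly-A controls were at 10.38 to 10.56 in MT1 to MT3, the tumors lowest in 18S, and at 3.98 to 4.23 in the other 9 tumors. With these sets of tumors as a block, so that MT rests on MT4 alone, MT minus WT was 1.57 for Cdkn2a (adjusted p = 0.481 from limma) and 2.95 for Cdkn2b (adjusted p = 0.298 from limma), and MT minus KO was -0.97 and 0.74 for these genes. The part of these controls in the results was not tested.

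**Figure D2:**
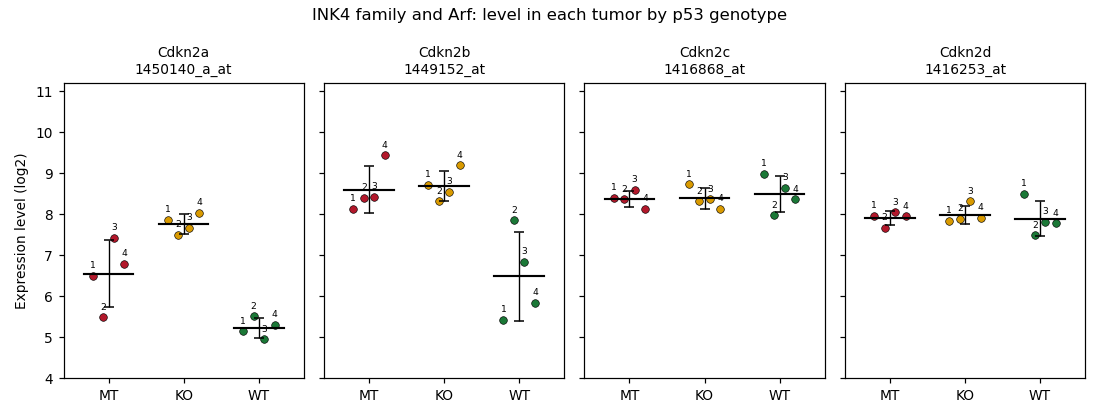
Log2 expression level (vertical axis) of the 4 Cdkn2 genes in MT, KO and WT tumors, 1 numbered point per tumor, with a line at the mean and whiskers for the SD (n = 4). For Cdkn2a the KO tumors lie between 7.49 and 8.04 and the WT tumors between 4.95 and 5.51, and for Cdkn2c and Cdkn2d the genotypes overlap.

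The tissue of the tumors also differed between genotypes. Markers of luminal and general epithelium (10 of 10 measured) had a mean level of 9.96 to 10.55 in MT, 10.18 to 10.82 in KO and 8.97 to 10.44 in WT tumors, with WT1 and WT3 below all others and 0 of 10 called in either direction. In KO minus WT, 4 of the 10 were higher and 0 lower at an unadjusted p under 0.05. Salivary acinar markers (9 of 12 measured) had a mean level of 8.99 to 9.82 in MT, 8.53 to 9.70 in KO and 10.48 to 11.59 in WT tumors. Every WT tumor was above all others in this mean, and 2 of the markers, the secretory genes Prpmp5 and Dcpp1, were called lower in KO than in WT tumors. At an unadjusted p under 0.05 in that comparison, 6 of the 9 were lower and 1 was higher. B and plasma cell markers (5 of 8 measured) were at 9.72 in WT1, against 4.69 to 4.99 in the other 11 tumors. T and NK cell markers (8 of 9 measured) were at 5.59 to 5.70 in MT, 5.42 to 5.63 in KO and 5.65 to 7.29 in WT tumors, so that every WT tumor was above every KO tumor and WT1 was highest, with 0 called. Of these 8, 4 were lower and 0 higher in KO minus WT at an unadjusted p under 0.05. Endothelial markers (8 of 8 measured) and macrophage markers (9 of 10 measured) each had 2 members called lower in KO than in WT tumors. Their adjusted p-values from limma were 0.0440 for Pecam1, 0.0443 for Emcn, 0.0357 for Lyz2 and 0.0483 for Cd68. All KO and WT tumors had low poly-A controls, so the poly-A block left these differences unchanged and altered only the estimate of the spread. With that estimate Pecam1, Emcn and Cd68 lost their call and Lyz2 kept it. In the main fit of KO minus WT, 3 endothelial markers were lower and 0 higher at an unadjusted p under 0.05. Of the macrophage markers 4 were lower and 1 was higher. Markers of basal and myoepithelial cells, fibroblasts, adipocytes, skeletal muscle and red blood cells had 0 called in any comparison. The part of these cells in the Cdkn2a and Cdkn2b differences was not tested. Without WT1, Cdkn2a in KO minus WT kept its call, while Cdkn2b was at 1.85 with an adjusted p of 0.0699 from limma. Trp53, measured as a check of the genotypes with probe sets named by the study's tables, averaged 8.63 in MT, 6.20 in KO and 7.83 in WT tumors at 1 probe set and 8.94, 6.67 and 8.33 at the other. Both were called higher in MT than in KO tumors (differences 2.44 and 2.27, adjusted p = 0.00675 from limma for each). They were the only 2 of all probe sets called in that comparison. In MT minus WT neither passed.

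None of the measured genes beside the locus was called. Of 11 neighbor symbols listed, 7 were measured, and 0 were called by limma, or passed an unadjusted p of 0.05, in any of the 3 comparisons. Their differences ran between -0.17 and 0.27 in KO minus WT, between -0.48 and 0.22 in MT minus WT and between -0.31 and 0.19 in MT minus KO. Mtap, the methionine salvage gene next to Cdkn2a, named here for its place, differed by -0.012 in KO minus WT and 0.18 in MT minus WT, and Elavl2, on the side of Cdkn2b, by 0.27 and 0.22.

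**Figure D3:**
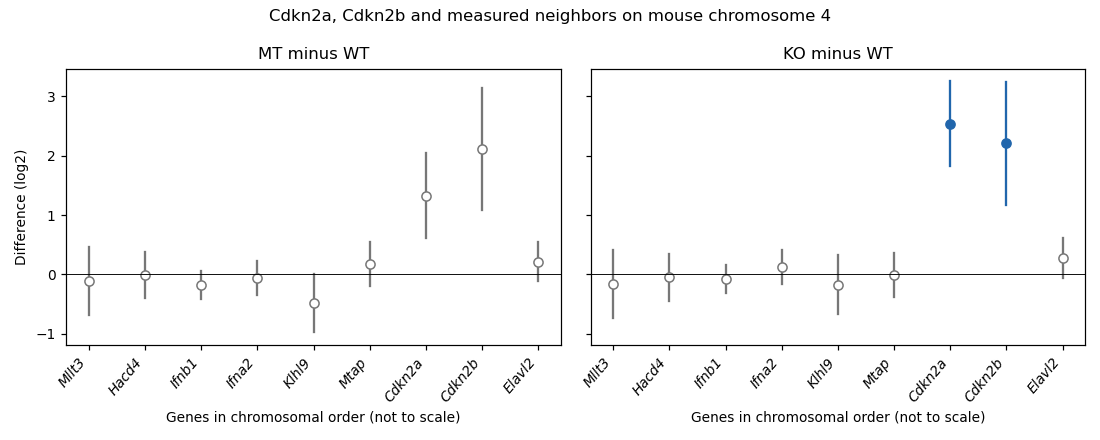
Difference in log2 level (vertical axis) of Cdkn2a, Cdkn2b and 7 measured neighbors in their order on mouse chromosome 4 (horizontal axis, not to scale), for MT minus WT and KO minus WT, with 95% confidence intervals. Filled blue points have an adjusted p under 0.05, and the 7 neighbors lie between -0.48 and 0.27.

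Among known regulators of the Ink4b-Arf-Ink4a locus, 25 of 27 were measured and 0 were called by limma in any comparison. Their median difference was 0.082 in KO minus WT, and at an unadjusted p under 0.05 in that comparison 3 had a higher and 2 a lower level. The smallest p-values belonged to Dmtf1, an activator of Arf, and to Bmi1, a Polycomb repressor of the locus. Dmtf1 was at 9.001 in KO and 8.11 in WT tumors (difference 0.89, adjusted p = 0.0513 from limma). With the poly-A block its difference was the same, and the changed estimate of the spread alone made it a call. Bmi1 was at 8.35 in KO and 9.37 in WT tumors (difference -1.02, adjusted p = 0.0726 from limma). Tgfb1, whose product is known to induce Cdkn2b, was at 9.12 in MT and 8.01 in WT tumors, a difference of 1.11 that was 0.11 with the poly-A block. Of 9 symbols listed as acting on or with Arf, 6 were measured through the annotation and 0 of these were called. Trp53, also listed, was named only by the study's tables and is not among the 6. Its 2 probe sets were called lower in KO than in WT tumors (differences -1.63 and -1.66, adjusted p = 0.0101 and 0.00798 from limma). Senp3, a SUMO protease of the nucleolus, was at 10.06 in KO and 9.46 in WT tumors, and Mdm2, the p53 ubiquitin ligase that Arf inhibits, at 8.75 in KO and 9.02 in WT tumors, with groups that did not overlap (adjusted p = 0.132 and 0.212 from limma). Only the Mdm2 probe set with the highest mean was used here. The study, with SAM over all genotypes, lists Mdm2 among the genes that separate WT from KO tumors, as induced by p53.

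The probe sets most like Cdkn2a across the 12 tumors, by Pearson r, were those of Nlk (0.923), Mpv17 (0.921), Slc44a2 (0.920), Gtf3c2 (0.912) and Fryl (0.908). Those most like Cdkn2b were both probe sets of Pcdh18 (0.956 and 0.945), Igf2r (0.930), Kcnma1 (0.915) and Osbpl6 (0.913). The 2 lists share no gene. Cdkn2a and Cdkn2b correlated at 0.752, which ranked Cdkn2b 351st among the probe sets most like Cdkn2a. These likenesses are descriptions over tumors of 3 genotypes that were chosen as the highest of all probe sets.

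The other INK4 genes had overlapping levels in the 3 genotypes. Cdkn2c, which encodes p18Ink4c, had levels of 8.39, 8.36, 8.59 and 8.12 in MT, 8.73, 8.31, 8.36 and 8.12 in KO and 8.99, 7.97, 8.65 and 8.36 in WT tumors. Its KO minus WT difference was -0.11 (95% interval -0.57 to 0.34) and its MT minus WT difference -0.13 (95% interval -0.58 to 0.33). Cdkn2d, which encodes p19Ink4d, had levels of 7.96, 7.67, 8.04 and 7.95 in MT, 7.83, 7.88, 8.31 and 7.91 in KO and 8.49, 7.48, 7.81 and 7.78 in WT tumors. The groups overlapped for both genes, with WT1 the highest tumor, and the Cdkn2d differences were 0.095 in KO minus WT (95% interval -0.34 to 0.53), 0.013 in MT minus WT (95% interval -0.42 to 0.45) and -0.082 in MT minus KO.

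Cdkn1b encodes p27Kip1, a CDK2 inhibitor that is controlled largely by degradation of the protein. Its probe set 1434045_at was at 8.38, 9.29, 8.86 and 8.92 in MT, 10.01, 8.91, 10.11 and 10.57 in KO and 9.13, 8.99, 9.23 and 9.13 in WT tumors. KO1, KO3 and KO4 were above every other tumor, while KO2 was below all WT tumors, and the WT tumors lay within 0.24 of each other. KO minus WT was 0.78 (SE 0.30, adjusted p = 0.144 from limma) and MT minus KO was -1.04 (SE 0.30, adjusted p = 0.312 from limma). Without KO2 the KO minus WT difference was 1.11 with an adjusted p of 0.0358 from limma, in a range of 0.0358 to 0.443 over 27 alternatives. The other probe set of the gene, 1419497_at, was at 5.04, 5.29, 5.27 and 4.90 in MT, 5.30, 4.93, 5.16 and 5.68 in KO and 5.43, 5.52, 5.46 and 5.18 in WT tumors, with a KO minus WT difference of -0.13 (SE 0.16). It is 1 of 3 member probe sets, with those of Cdkn1c and Rbl1 1425166_at, that a filter on dim probe sets would leave out. Of 13 symbols listed for p27 turnover 11 were measured and 0 were called by limma. Cul1, the scaffold of the SCF ubiquitin ligase that marks p27 for degradation, was at 9.65 in KO and 9.09 in WT tumors without overlap (difference 0.57, SE 0.15, adjusted p = 0.0504 from limma), and Cks1b, an accessory protein of that ligase, at 10.80 in KO and 10.43 in WT tumors.

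Cdkn1c, the imprinted gene of p57Kip2, was at 5.58, 5.27, 4.94 and 5.07 in MT, 5.29, 5.04, 5.24 and 5.51 in KO and 5.62, 5.33, 5.82 and 5.68 in WT tumors. The groups overlapped through MT1, KO4 and WT2. The difference was -0.34 in KO minus WT (SE 0.16, adjusted p = 0.222 from limma) and -0.39 in MT minus WT (SE 0.16, adjusted p = 0.218 from limma).

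**Figure D4:**
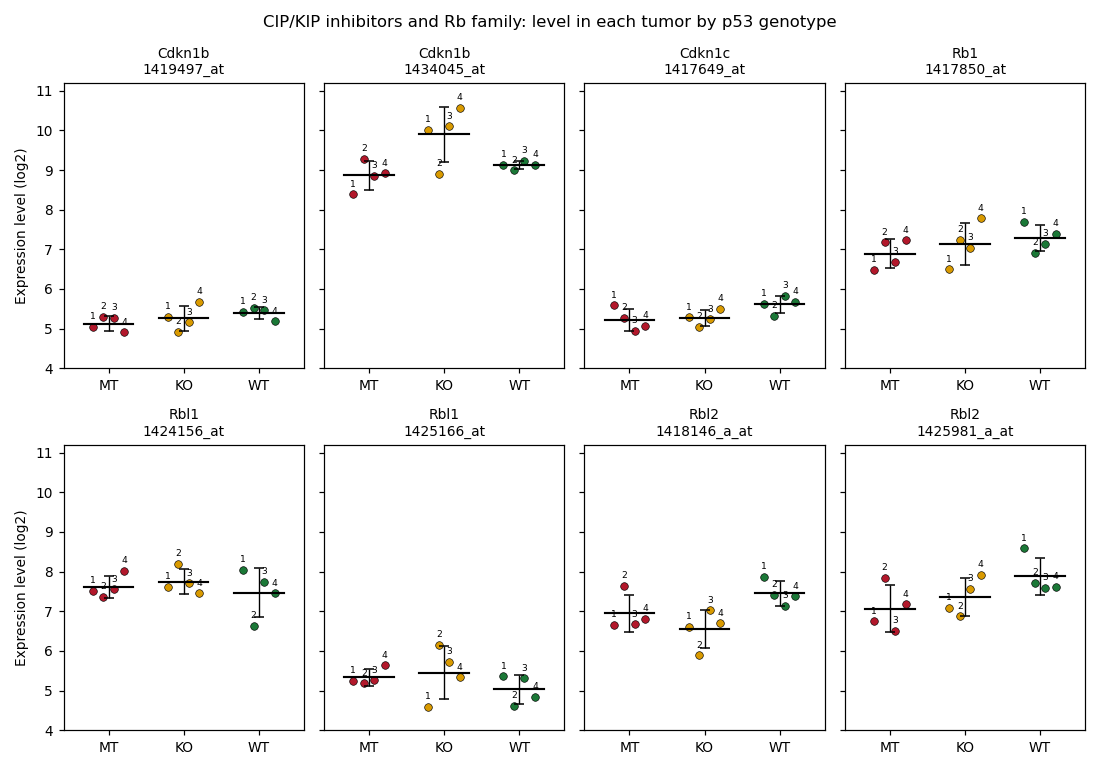
Log2 expression level (vertical axis) of the CIP/KIP and Rb family probe sets in MT, KO and WT tumors, 1 numbered point per tumor, with a line at the mean and whiskers for the SD (n = 4). Cdkn1b 1434045_at reaches 10.01 to 10.57 in KO1, KO3 and KO4, and Rbl2 1418146_a_at is at 5.89 to 7.02 in KO and 7.13 to 7.87 in WT tumors.

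Of the Rb family, Rbl2 had the largest differences from WT tumors. At 1418146_a_at it was at 6.66, 7.63, 6.67 and 6.81 in MT, 6.60, 5.89, 7.02 and 6.69 in KO and 7.87, 7.42, 7.13 and 7.38 in WT tumors. Every KO tumor was below every WT tumor, and MT1, MT3 and MT4 were below all WT tumors while MT2 was within their range. The KO minus WT difference was -0.90 (SE 0.28, adjusted p = 0.0826 from limma), which did not pass, and in 26 alternatives it ran between -1.05 and -0.68. At 1425981_a_at the levels were 6.75, 7.85, 6.50 and 7.17 in MT, 7.08, 6.88, 7.57 and 7.91 in KO and 8.59, 7.72, 7.58 and 7.62 in WT tumors, with overlap. There the differences were -0.52 in KO minus WT (SE 0.33) and -0.81 in MT minus WT (SE 0.33, adjusted p = 0.217 from limma). The probe sets thus gave MT minus KO differences of opposite sign, 0.39 and -0.29, neither of them called.

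Rb1 was at 6.48, 7.18, 6.68 and 7.23 in MT, 6.50, 7.25, 7.04 and 7.79 in KO and 7.69, 6.92, 7.14 and 7.40 in WT tumors, with overlap. Its differences were -0.14 in KO minus WT (95% interval -0.74 to 0.46) and -0.39 in MT minus WT (95% interval -0.995 to 0.21). Rbl1, itself a known E2F target, was at 7.51, 7.37, 7.55 and 8.03 in MT, 7.62, 8.19, 7.70 and 7.45 in KO and 8.05, 6.63, 7.74 and 7.45 in WT tumors (1424156_at). The lowest was WT2, and the differences were 0.28 in KO minus WT (SE 0.28) and 0.15 in MT minus WT (SE 0.28). Its probe set 1425166_at had levels of 5.24, 5.19, 5.26 and 5.63 in MT, 4.59, 6.15, 5.72 and 5.33 in KO and 5.36, 4.61, 5.31 and 4.85 in WT tumors, which overlapped, with differences of 0.42 in KO minus WT and 0.30 in MT minus WT.

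Downstream of the inhibitors, no cyclin, kinase or E2F gene was called. All 12 of 12 G1 cyclins and kinases were measured, with 0 called by limma in any comparison and median differences of -0.11 in KO minus WT, -0.095 in MT minus WT and -0.062 in MT minus KO. Ccnd1, the cyclin D1 gene, had its smallest p in KO minus WT, at 11.08 in KO and 9.72 in WT tumors without overlap (difference 1.36, SE 0.36, adjusted p = 0.0538 from limma), and averaged 10.52 in MT tumors. Cdk4, whose product the INK4 proteins bind, was at 9.32 in KO and 10.07 in WT tumors (difference -0.74, adjusted p = 0.101 from limma). Of 16 E2F factors and partners 11 were measured and 0 were called, with a median difference of 0.061 in KO minus WT and 0.11 in MT minus WT. E2f4, the factor that pairs with p107 and p130, was at 7.56 in MT and 6.95 in WT tumors, a difference of 0.61 that was -0.042 with the poly-A block.

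The output of the pathway was measured with a proliferation score, the mean log2 level of 19 replication genes driven by E2F and 19 mitosis genes that DREAM represses. It was 8.83, 7.87, 8.38 and 8.37 in MT1 to MT4, 8.48, 8.50, 8.66 and 8.32 in KO1 to KO4 and 8.69, 7.91, 8.57 and 8.07 in WT1 to WT4. MT2 and WT2 were lowest, and the groups overlapped. The score differed by 0.18 in KO minus WT (exact permutation p = 0.429), by 0.049 in MT minus WT (exact permutation p = 0.914) and by -0.13 in MT minus KO (exact permutation p = 0.629), 2-sided with 4 tumors per group, where the smallest p possible is 0.0286 (adjusted over the 3 comparisons, 0.914 each). None of the 19 replication genes or 19 mitosis genes was called by limma. The replication genes had a median difference of -0.038 in KO minus WT and 0.12 in MT minus KO, and the mitosis genes one of 0.36 in KO minus WT and -0.32 in MT minus KO. Those with the smallest p among the replication genes in KO minus WT were Orc1, of the origin recognition complex, at 5.82 in KO and 6.06 in WT tumors (adjusted p = 0.311 from limma), and Mcm4, of the replicative helicase, at 9.14 in KO and 8.52 in WT tumors (adjusted p = 0.359 from limma). At an unadjusted p under 0.05, 3 mitosis genes were higher in KO than in WT tumors and 5 were lower in MT than in KO tumors. Bub1, a spindle checkpoint kinase, was at 7.97 in KO and 6.83 in WT tumors without overlap (difference 1.14, SE 0.30, adjusted p = 0.0524 from limma), and Cdc20, an activator of the anaphase-promoting complex, at 9.12 in MT and 9.91 in KO tumors (difference -0.79, adjusted p = 0.318 from limma).

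No member passed a correlation with the score after adjustment over the 12 relations. The highest correlation was that of Cdkn2d (r = 0.723, permutation p = 0.00768, adjusted p = 0.0922, Spearman rho = 0.720, permutation p = 0.0105, adjusted p = 0.127). Without MT2 and WT2, the tumors farthest from the median score, r was 0.520, and after centering on genotype means it was 0.714. In the 9 tumors with low poly-A controls it was 0.799. Rbl1 at 1424156_at followed (r = 0.628, permutation p = 0.0262, adjusted p = 0.157, rho = 0.664, permutation p = 0.0218, adjusted p = 0.131). For this probe set r was 0.268 without MT2 and WT2 and 0.603 after centering on genotype means. In the 9 tumors with low poly-A controls, which include WT2 but not MT2, it was 0.785. The relation was thus weak when both MT2 and WT2 were left out, and neither was left out alone here. Cdkn2a was at r = 0.284 (permutation p = 0.363, adjusted p = 0.698) and rho = -0.0070, and Cdkn2b at r = -0.064 (permutation p = 0.848, adjusted p = 0.888) and rho = -0.196.

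**Figure D5:**
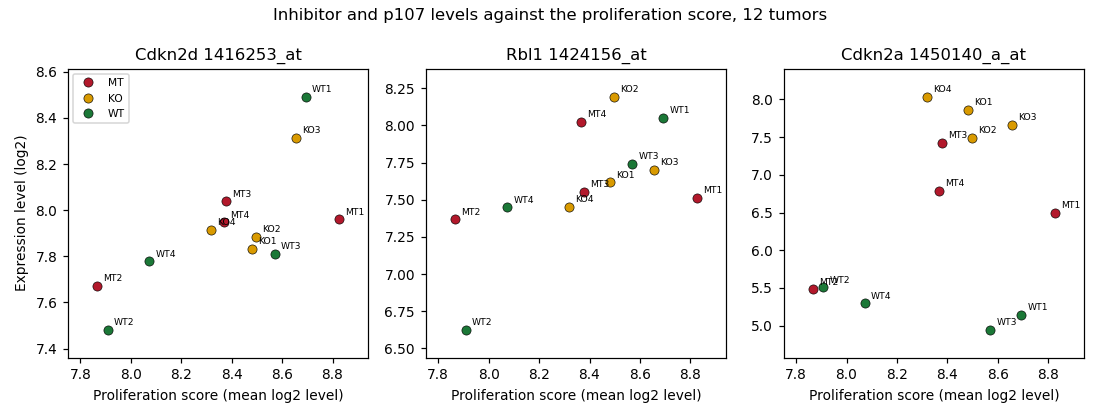
Log2 expression level (vertical axis, scaled for each gene) of Cdkn2d, Rbl1 (1424156_at) and Cdkn2a against the proliferation score (horizontal axis, mean log2 level of 38 genes) in 12 tumors, colored by genotype. Cdkn2d has r = 0.723 and Cdkn2a r = 0.284, and MT2 and WT2 have the lowest scores.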

How the data were processed

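Values of 12 salivary tumors (4 per p53 genotype, 1 array each) were taken as the authors deposited them, as log2 levels per probe set. By the study's methods they were made with the RMA method in BRB-ArrayTools, which corrects background, normalizes arrays by quantiles and summarizes probes. The submitters' processing notes list both RMA and MAS5 without tying either to the table. Quantile normalization leaves arrays with nearly the same distribution, so shifts of most genes would not be seen. No depth applies to arrays, and the 4 arrays per genotype limit the precision.

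The 64 control probe sets among 22690 were not tested. The platform annotation gave 20380 a single symbol, 691 several and 1555 none, and Trp53 was named by the study's tables. Differences were fitted with limma 3.58.1 in R 4.3.3 over all 12 tumors and tested 2-sided (Benjamini-Hochberg over 22626 probe sets, threshold 0.05). Scores were compared by exact permutation, correlations by 100000 permutations (Python 3.11.15, scipy 1.17.1), and the steps were checked on simulated data. For lists, 1 probe set per gene was used, the one with the highest mean. The numbers listed count symbols. Some genes, among them Hacd4, Trip12, Rnf123, Adgre1 and Jchain, were listed under an older symbol as well, so those lists hold fewer genes than symbols. Every member probe set is given, and genes of the pathway lists were named from up to 4 called genes per comparison, or from the 2 with the smallest p where none was called. The members and lists were chosen with earlier results of these data known. That the poly-A controls mark a labeling batch is inferred and named in no source used here.

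The alternatives tried were leaving out dim probe sets, centering, cyclic loess, trend and robust moderation, array weights, blocks for the tumor number and the poly-A controls, covariates for hybridization controls and 18S, fits to the 8 tumors compared, the methods' t-test, SAM, 1 probe set per gene, thresholds of 0.1 and 0.01, and each tumor left out. The labels number the tumors within a genotype and name no pairing, and the numbers are not used as a pairing. Same-numbered tumors correlated above 0.1 in 6 of 12 pairs. That check cannot settle a pairing, because tumors with different numbers were not compared. Intensity files were not analysed here.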

Additional observations from a re-analysis of the deposited data

Results flagged for a closer look

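In groups of 4 tumors, 1 tumor stood far from the other 3 in 4 of 39 groups checked, where chance gives about 1 in 20. Cdkn2d was at 8.31 in KO3, against 7.83 to 7.91 in the other KO tumors. Rbl1 at 1425166_at was at 5.63 in MT4, against 5.19 to 5.26 in the other MT tumors. Rbl2 at 1418146_a_at was at 7.63 in MT2, against 6.66 to 6.81 in the other MT tumors. Rbl2 at 1425981_a_at was at 8.59 in WT1, the tumor with the high B and plasma cell markers, against 7.58 to 7.72 in the other WT tumors.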

How the results depend on the processing

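Between KO and WT tumors 2 members were called, where 1035 of all 22626 probe sets were. There was 1 in the fit to the 8 tumors compared (374 of all), 0 with the 18S covariate (11 of all), 1 by the methods' t-test (10 of all), 1 at an adjusted p under 0.01 (61 of all) and 3, Rbl2 1418146_a_at being added, at an adjusted p under 0.1 (2541 of all). With 1 tumor left out the count was 1 to 2. It was 1 without WT1, WT3, KO1, KO3 or KO4, and without KO2 it was 2, with Cdkn1b in place of Cdkn2b. Between MT and WT tumors 0 were called (83 of all), and 1 after the filter on dim probe sets (133 of 12197), 4 with array weights (4973 of all), 1 by SAM (1450 of all) and 2 at an adjusted p under 0.1 (618 of all). With 1 tumor left out the count was 0 to 1, and it was 1 without WT2 or MT2. Between MT and KO tumors 0 were called in the main analysis and in each of 27 alternatives, those that leave out a tumor included. With the tumor number as a replicate block the counts were 2, 0 and 0, and the block changed no call of a member. With a tumor left out, the proliferation score differed by 0.043 to 0.30 in KO minus WT, by -0.11 to 0.21 in MT minus WT and by -0.28 to 0.036 in MT minus KO, and no alternative took it past the threshold. No called member changed sign in any alternative, while uncalled differences changed sign in 5, 12 and 19 of 318 cases in KO minus WT, MT minus WT and MT minus KO. The cause of these changes was not tested. With 4 tumors per genotype the 95% intervals of uncalled members in KO minus WT reach down to -1.50 for Rbl2 1418146_a_at and up to 1.44 for Cdkn1b 1434045_at. Both of these intervals exclude 0, and the 2 members missed the threshold only after adjustment.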

Other observations

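Among the 130 genes measured in the 10 lists of pathway and neighboring genes, 2 were called in KO minus WT, both lower (1.54%, where 2.64% of all probe sets were called lower), and 0 in the other comparisons. Trp53, which was listed but not named by the annotation, is not among the 130. Of 16 genes listed from the imprinted domain of Cdkn1c on chromosome 7, 14 were measured, and Phlda2, an imprinted gene known to restrain placental growth, was lower in KO than in WT tumors, at 5.79 in KO and 6.59 in WT tumors without overlap (difference -0.80, SE 0.13, adjusted p = 0.0137 from limma). It was at 5.997 in MT tumors (MT minus WT -0.59, adjusted p = 0.0653 from limma). Of 9 genes listed around Rb1 on chromosome 14, 6 were measured, and Sucla2, a subunit of the mitochondrial succinyl-CoA ligase, was lower in KO tumors, at 9.10 in KO and 9.72 in WT tumors without overlap (difference -0.62, SE 0.15, adjusted p = 0.0411 from limma). Both genes stood within lists whose median differences in KO minus WT were near 0, -0.06 around Cdkn1c and 0.0012 around Rb1. Each list had 2 genes lower and 0 higher in that comparison at an unadjusted p under 0.05. Beside Phlda2 this was Th (difference -0.25, adjusted p = 0.183 from limma). Beside Sucla2 it was Rcbtb2 (difference -0.64, adjusted p = 0.0842 from limma).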
